A study of Mus musculus with 16 samples.

Results

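The loci of 9 mouse POU genes, Pou2f1, Pou2f2, Pou2f3, Pou3f2, Pou3f3, Pou4f1, Pou4f2, Pou6f1 and Pou1f1, held 117 of the 81132 accessible regions detected by ATAC-seq in ES cells. A region was assigned to a locus when its centre lay in the gene body or at most 100 kb from a transcription start site (TSS) of the gene (GENCODE M21, mm10). The POU genes Pou5f1 and Pou3f1 were outside this set and are given for comparison. The cells came from SBROS, a clonal mouse ES cell line of CGR8 background that derives from the SBR reporter line, with SOX2-SNAP on both alleles and OCT4-HALO on a single allele. Cells were grown in serum with LIF, CHIR99021 and PD184352, labelled with HaloTag TMR, SNAP-SiR647 and Hoechst, and sorted in G1 into the groups SHOH, SHOL, SLOH and SLOL with 3 replicates each, in which the letter after S or O stands for high (H) or low (L) SOX2 or OCT4. Peaks from the 12 libraries were merged by the authors into a list that gives a position for each region and no level, so it does not tell which of the libraries a region was called in. The list does not give the depth of the libraries, values have no replicate error, and SHOH, SHOL, SLOH and SLOL could not be compared. The ChIP-seq samples were not analysed here.

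POU factors bind DNA through a POU-specific domain and a POU homeodomain joined by a flexible linker, and many of them recognise the octamer, the element first described in immunoglobulin and histone promoters. OCT4, the product of Pou5f1, pairs with SOX2 on adjacent SOX and octamer half-sites in pluripotent cells. Most other family members act in differentiated cells, among them neurons, B cells and pituitary cells, while OCT1 is expressed broadly.

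The octamer was searched as ATGCAAAT and the SOX motif as CCATTGT or CCTTTGT, on both strands. Octamers occurred in 5 of the 117 regions, 2 at Pou2f1, 2 at Pou2f3 and 1 at Pou4f2. The sequences of 3 of these regions are shown because they lay outside promoters, and capitals mark the octamer and, where present, the SOX motif. They were read from the plus strand of GRCm38.p6, whose coordinates are those of mm10, at chr1:165948328-165948476 (an intron of Pou2f1), chr1:166041652-166041951 (upstream of Pou2f1, the central 300 bases of the region) and chr8:78418322-78418557 (intergenic, downstream of Pou4f2).
Pou2f1 intronic region: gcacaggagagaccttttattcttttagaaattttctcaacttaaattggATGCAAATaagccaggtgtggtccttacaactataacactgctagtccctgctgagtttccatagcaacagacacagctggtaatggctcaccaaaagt
Pou2f1 upstream region: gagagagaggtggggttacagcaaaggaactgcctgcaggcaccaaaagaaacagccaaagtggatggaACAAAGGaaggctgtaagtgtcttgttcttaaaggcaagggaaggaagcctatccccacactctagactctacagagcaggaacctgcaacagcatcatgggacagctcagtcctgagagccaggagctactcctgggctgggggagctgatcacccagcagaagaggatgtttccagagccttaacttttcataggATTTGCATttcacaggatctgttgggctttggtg
Pou4f2 downstream region: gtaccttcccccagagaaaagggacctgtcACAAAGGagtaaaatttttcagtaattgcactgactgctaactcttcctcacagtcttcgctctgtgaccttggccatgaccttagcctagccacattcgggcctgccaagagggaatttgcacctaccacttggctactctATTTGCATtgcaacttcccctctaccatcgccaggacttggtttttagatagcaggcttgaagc

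Promoter sequence differed between the members in its content of CpG dinucleotides. Of the 9 genes, 8 matched the RefSeq promoter sequences (GRCm38.p6), from which the bases upstream of the RefSeq start are shown for Pou4f1, Pou3f2 and Pou1f1, with each CpG in capitals. These are the window with the most CpG, a window that lay entirely in an accessible region and a window outside accessible regions. Their positions are chr14:104468000-104468249 (minus strand), chr4:22488367-22488616 (minus strand) and chr16:65520262-65520510 (plus strand).
Pou4f1 promoter: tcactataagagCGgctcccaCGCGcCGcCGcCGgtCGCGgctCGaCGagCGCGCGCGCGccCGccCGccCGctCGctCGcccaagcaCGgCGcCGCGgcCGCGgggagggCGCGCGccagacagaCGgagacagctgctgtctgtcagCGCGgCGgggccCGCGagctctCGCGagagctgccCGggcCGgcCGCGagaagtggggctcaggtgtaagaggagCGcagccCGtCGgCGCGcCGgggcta
Pou3f2 promoter: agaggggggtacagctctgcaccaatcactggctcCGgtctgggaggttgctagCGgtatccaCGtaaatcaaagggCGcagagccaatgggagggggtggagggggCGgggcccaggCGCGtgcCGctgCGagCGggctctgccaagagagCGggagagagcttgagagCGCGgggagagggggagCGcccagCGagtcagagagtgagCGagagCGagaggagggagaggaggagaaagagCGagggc
Pou1f1 promoter: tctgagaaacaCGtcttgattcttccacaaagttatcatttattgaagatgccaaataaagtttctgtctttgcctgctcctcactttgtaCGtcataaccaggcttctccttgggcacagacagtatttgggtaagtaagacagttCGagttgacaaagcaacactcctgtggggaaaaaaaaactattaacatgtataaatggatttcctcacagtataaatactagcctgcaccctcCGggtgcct
The 250 bases before the RefSeq start contained 47 CpG at Pou4f1, 18 at Pou3f2 and 4 at Pou1f1, against a median of 6 over the 32851 windows of the RefSeq set. Accessible regions covered 170 of these bases at Pou4f1, 250 at Pou3f2 and 0 at Pou1f1. Before the RefSeq start of the other genes, or the most distal RefSeq start of Pou2f1, there were 29 CpG at Pou2f1, 20 at Pou6f1, 17 at Pou4f2, 15 at Pou3f3 and 12 at Pou2f2. Accessible regions covered 250 bases of the windows of Pou2f1 and Pou4f2, 190 at Pou3f3, 179 at Pou6f1 and 0 at Pou2f2, so that the Pou2f2 window had more CpG than the median and no accessible base. The RefSeq set also had windows before internal starts, 2 at Pou2f1 with 2 CpG each and 1 at Pou1f1 with 0, and none of them had an accessible base. RefSeq starts differ from those of GENCODE at some genes, and the windows of Pou2f1, Pou2f2 and Pou1f1 include the first coding TSS of GENCODE, which at Pou2f2 lies inside the gene. At Pou1f1 this TSS is the last base of the window, and the sequence shown leaves it out and is 1 base shorter than the window. Neither motif was found in these windows. Of all windows of this length, 1.6% contained the octamer and 7.92% the SOX motif. The windows of the members are too few for their lack of motifs to differ from these shares.

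The number of regions per locus ranged from 4 at Pou1f1 to 22 at Pou2f2. The ends of this range depended on the definition of the locus. The highest count was 16, at Pou2f1, when TSSs of protein-coding transcripts alone were used and 14, again at Pou2f1, with a window of 50 kb, and with a window of 200 kb the lowest count was 10, at Pou4f1. The median over the 9 members was 14, and over all 21938 protein-coding genes, counted by the same rule, it was 11 with quartiles of 6 and 17. Because long genes and genes with many TSSs have wider windows, the count was also divided by the length of the window. The members then had a median of 55 regions per Mb, beside 50 for protein-coding genes. By this measure Pou2f2 was the densest locus, with 85 regions per Mb, and Pou1f1 the sparsest, with 19.7. Pou4f2, Pou6f1, Pou2f3 and Pou3f3 had 70, 68.3, 63.6 and 55 regions per Mb, and Pou2f1, Pou3f2 and Pou4f1 had 49.6, 45 and 44.4. In number of regions, 5 of the 9 members were above the median protein-coding gene. Close to the limits of the loci, the nearest region inside lay 639 bp from a limit, at Pou2f1, and the nearest outside 286 bp, at Pou3f2.

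**Figure D1:**
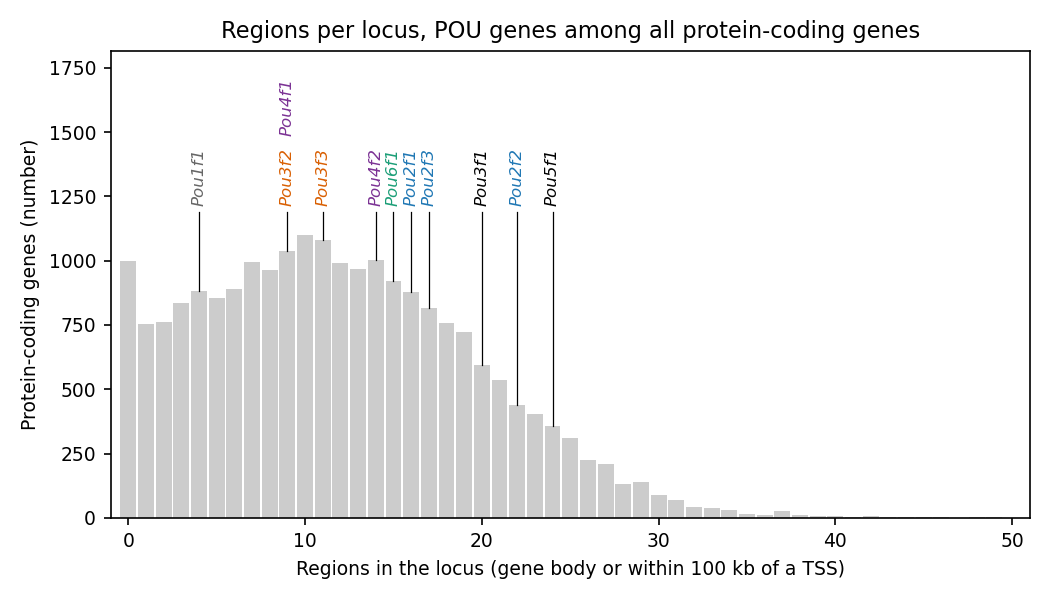
Number of protein-coding genes (y axis, grey bars) by number of regions in their locus (x axis), with the POU members labelled in the colour of their class and Pou5f1 and Pou3f1 in black. The members lie between 4 and 22 regions, and 13 protein-coding genes with more than 50 regions are not drawn.

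A region was centred in a promoter of its own gene, defined as the 1000 bp before and the 100 bp after a TSS, at 8 of the 9 members, beside 57.7% of all protein-coding genes. The exception was Pou1f1. At least 2 such regions were present at 5 members, Pou2f1, Pou2f2, Pou2f3, Pou3f3 and Pou4f1, beside 11.2% of protein-coding genes. At 7 members a TSS lay inside a region, beside 61.4% of protein-coding genes, and the other 2 were Pou6f1 and Pou1f1. Within 10 kb of a TSS, 8 members had a region, beside 79.7% of protein-coding genes. Pou6f1 and Pou1f1 were the closest gene of no region, which was the case for 25.6% of protein-coding genes.

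The class II genes encode the octamer-binding factors OCT1, OCT2 and SKN-1a. Their 3 loci held 55 regions, of which 10 lay within 10 kb of a TSS of the gene and 7 in its promoters.
Pou2f1 encodes OCT1, which is present in most cell types. The gene lies on the minus strand at chr1:165865154-166002678, has 14 annotated TSSs and had 16 regions, with 27.5% of protein-coding genes having more. The widest region of the locus, 1289 bp at chr1:166002370-166003658, was centred 336 bp upstream of the first coding TSS and covered it. It was also 54 bp from the TSS of the non-coding gene Gm26665 and was the most isolated region of the locus, with 20530 bp to the next region. Another promoter region, 310 bp at chr1:165880158-165880467, lay 152 bp upstream of an internal TSS and overlapped coding sequence of longer transcripts. The gene body contained 4 regions. The intronic region with the octamer was 149 bp wide, and its octamer lay 13371 bp upstream of the nearest TSS of the gene. Upstream of the gene, 6 regions had the non-coding gene Gm7626 as the closest gene, including the region with the other octamer, which was 308 bp wide. In all, 12 of the 16 regions were closest to a non-coding gene and 2 to Pou2f1 itself.

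Pou2f2 encodes OCT2, a factor of B cells. The gene (minus strand, chr7:25087344-25179726) had the most regions of the members, 22, and 9.84% of protein-coding genes had more. This rank was lost with TSSs of protein-coding transcripts alone, where Pou2f2 had 14 regions, and with a window of 50 kb, where it had 13. Of its 22 regions, 13 were 200 bp or wider. Its 2 promoter regions were 397 bp at chr7:25133068-25133464, centred 754 bp upstream of the first coding TSS, and 444 bp at chr7:25179423-25179866, centred 82 bp downstream of the most distal TSS. The 397 bp region held 2 SOX motifs and did not reach the first coding TSS. Among all 22, 7 lay in promoters of other genes, and 12 had another protein-coding gene as the closest gene. The neighbours Erf, an ETS-domain repressor, and the microRNA gene Mir6537 were each closest to 4 regions. The widest region, 1128 bp at chr7:25267287-25268414, lay in the promoter of Cic, which encodes a transcriptional repressor of the HMG-box type. Pou2f2 itself was the closest gene of 4 regions. The most isolated region, 199 bp at chr7:25035900-25036098, was intronic to a neighbouring gene and had Grik5 as the closest gene.

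Pou2f3 encodes SKN-1a, known from keratinocytes and from tuft cells. The gene (minus strand, chr9:43123939-43210369) had 17 regions, and 6 of them were closest to Pou2f3. It was the member with the most promoter regions, 3. The region at chr9:43210097-43210601 was 505 bp wide, covered the first coding TSS and part of the 5' UTR and held 2 octamers, 222 and 201 bp downstream of the TSS. A region at chr9:43205641-43206048, 408 bp wide and centred 89 bp upstream of an internal TSS, held 1 octamer 221 bp upstream of that TSS. The remaining promoter region was 135 bp wide, at chr9:43211229-43211363, and held neither motif. At least 2 octamers were present in 0.18% of all regions of the list. Further into the gene, the intronic region at chr9:43132407-43132800 held 2 SOX motifs. The widest region, 769 bp at chr9:43116108-43116876, lay in the promoter of Tmem136, and the most isolated, at chr9:43264136-43264337 with 19998 bp to the next region, lay in that of the non-coding gene D630033O11Rik. The latter gene was closest to 4 regions.

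The 4 members of classes III and IV are factors of the nervous system, and their regions lay nearer to the gene than those of classes II and VI. Of their 43 regions, 25 (58.1%, 95% Wilson interval 43.3 to 71.6%) were within 10 kb of a TSS of the gene, compared with 11 of 70 (15.7%, 9.01 to 26%) at the members of classes II and VI. The interval covers counting error only, and regions of a locus are not independent of each other. With limits of 5 and 20 kb, chosen like the 10 kb limit after the data were seen, the counts were 17 and 32 of 43 in classes III and IV and 8 and 20 of 70 in classes II and VI. Each of the 4 genes had 6 or 7 regions within 10 kb, and 5.99% of protein-coding genes had 6 or more. Their windows were 200 to 202.6 kb long, as these genes are compact and have 1 or 2 TSSs, whereas those of classes II and VI were 219.8 to 322.5 kb long. The member itself was the closest gene of 21 of the 43 regions, compared with 12 of the 70, while 15 and 23 were closest to a non-coding gene. With TSSs of protein-coding genes alone, the member was closest to 34 of the 43 and 27 of the 70. Genes of classes III and IV outside the 9 members varied. Within 10 kb of a TSS, Pou3f1 had 4 of its 20 regions, Pou3f4 had 4 of 5 and Pou4f3 had 5 of 11. The nearness thus describes the 4 members and not each gene of classes III and IV.

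**Figure D2:**
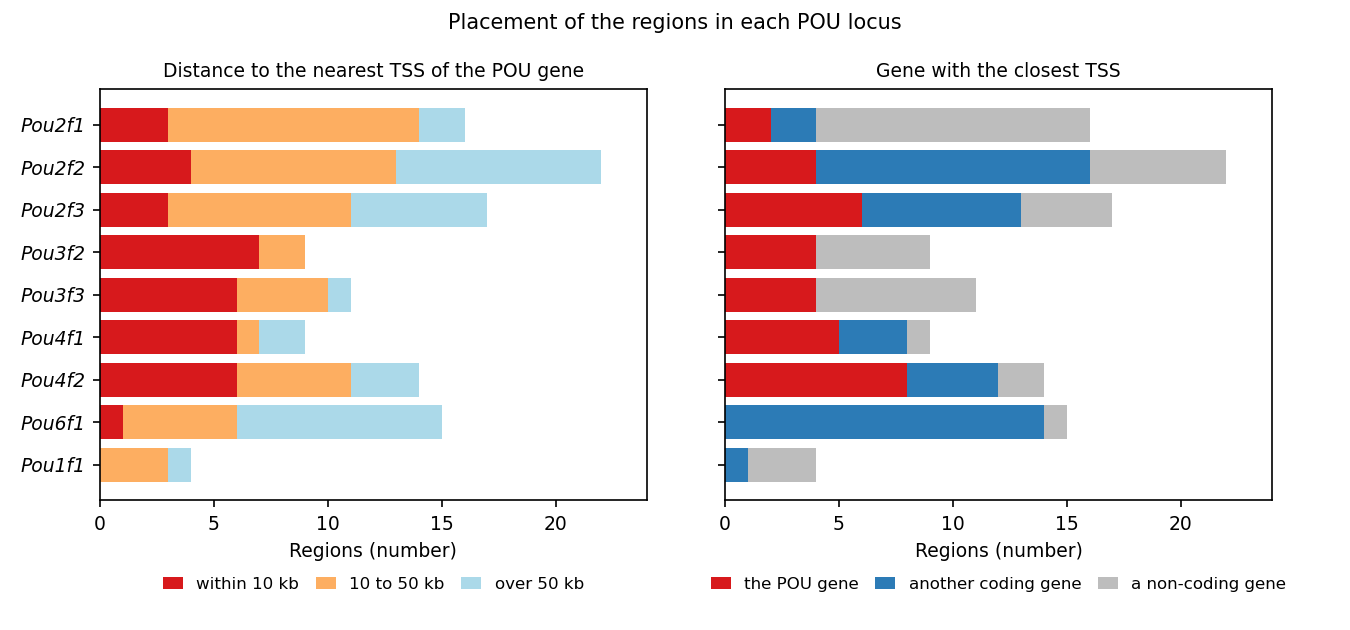
Number of regions (x axis) in the locus of each member, divided on the left by the distance from the region's centre to the nearest TSS of the member and on the right by the gene with the closest TSS. Regions within 10 kb number 6 or 7 at Pou3f2, Pou3f3, Pou4f1 and Pou4f2 and 0 to 4 at the others.

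Pou3f2, which encodes BRN2, a factor of neural progenitors and neurons, is a single-exon gene (minus strand, chr4:22482780-22488366). It had 9 regions, fewer than the median protein-coding gene, but 7 of these lay within 10 kb of its TSS, and 1.94% of protein-coding genes had more regions that near. The promoter region, 564 bp at chr4:22488074-22488637, was centred 11 bp downstream of the TSS, in the 5' UTR. Next to it, at a distance of 247 bp, a region of 329 bp lay in the coding sequence. Upstream, 5 regions were closest to the non-coding gene Gm30731, and 2 of these, of 578 and 295 bp, lay in promoters of that gene. The widest region, 749 bp at chr4:22479042-22479790, was intergenic, 8950 bp downstream of the TSS. No region of the locus was narrower than 207 bp, and the median width was 551 bp, the widest median among the members. The most isolated region, at chr4:22463332-22463559, was the farthest from the TSS and was repeat-masked over its whole length.

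Pou3f3, the gene of BRN1, which acts in cortical and kidney development, is likewise a single-exon gene (plus strand, chr1:42695768-42703176). It had 11 regions, 6 of them within 10 kb. The TSS was covered by a region of 415 bp (chr1:42695578-42695992), and a region of 229 bp (chr1:42694951-42695179) was centred 703 bp upstream of the TSS, where the closest gene was a non-coding one. Inside the gene, a region of 328 bp lay in the 5' UTR, and 2 regions of 216 and 177 bp, separated by 75 bp, in the coding sequence. The flanking non-coding genes Pantr1 and Pantr2 are named for their position next to Pou3f3. Pantr1 was closest to 3 intronic regions, among them the widest of the locus, 678 bp at chr1:42686213-42686890, and the promoter of Pantr2 held a region of 650 bp (chr1:42713315-42713964). No region of the locus had another protein-coding gene as the closest gene. A region of 132 bp at chr1:42791143-42791274 stood 95440 bp from the TSS, with 59596 bp to the next region.

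Pou4f1 encodes BRN3A, a factor of sensory neurons. The gene (minus strand, chr14:104461676-104467999) had 9 regions, 6 of them within 10 kb of a TSS and 5 closest to Pou4f1. The region over the first coding TSS was 451 bp wide (chr14:104467719-104468169) and had the highest CpG ratio of the 14 own-promoter regions, 1.13, where the ratio is the observed number of CpG divided by that expected from the C and G content. A region of 374 bp (chr14:104465712-104466085) was centred 533 bp upstream of an internal TSS, in coding sequence. The intron contained a region of 174 bp, 238 bp from the promoter region. Rnf219 was closest to 3 regions, among them the widest of the locus, 894 bp at chr14:104522046-104522939, which lay 130 bp from a TSS of Rnf219 and was also the region with the highest CpG ratio of these 3, 0.860. A region of 521 bp at chr14:104502567-104503087, with 18958 bp to the next region, was the most isolated. Neither motif was found in the 9 regions of this locus.

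Pou4f2 encodes BRN3B, a factor of retinal ganglion cells. The gene (minus strand, chr8:78433010-78436645) had 14 regions and was the closest gene of 8, more than any other member. Its promoter region was wide, 1093 bp at chr8:78436258-78437350, and covered the TSS. A region of 404 bp lay in the coding sequence, and a region of 289 bp was centred 1512 bp upstream of the TSS. Downstream of the gene, 5 intergenic regions were closest to Pou4f2, and the most distant of these, 236 bp wide, held an octamer and a SOX motif 135 bases apart. Its octamer lay 18147 bp downstream of the TSS. The widest region, 1168 bp at chr8:78508422-78509589, lay in the promoter of Rbmxl1. Ttc29 and the non-coding Gm2225 were each closest to 2 regions, and the most isolated region, at chr8:78358569-78358727 with 32059 bp to the next region, lay in an intron and had Ttc29 as the closest gene.

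**Figure D3:**
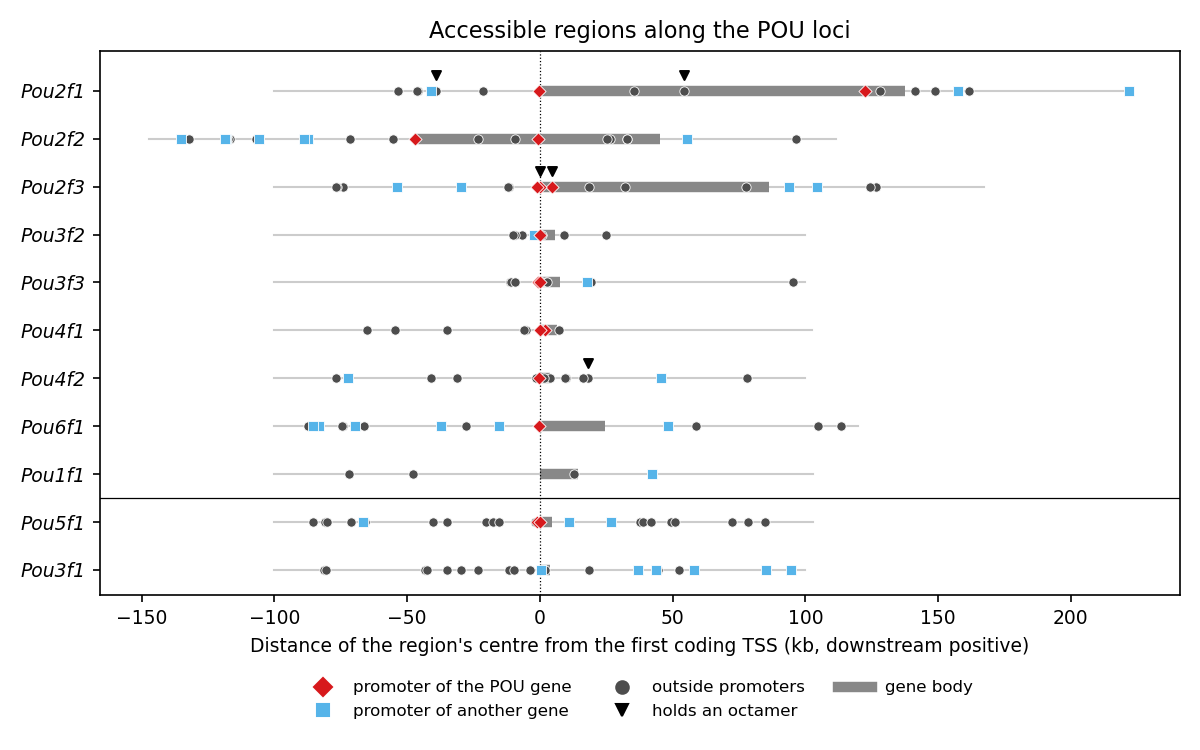
Position of each region in the 9 loci and in those of Pou5f1 and Pou3f1, as the distance of its centre from the first coding TSS in kb (x axis, downstream positive), with the gene body as a thick bar and the limits of the locus as a thin line. Red diamonds mark promoters of the POU gene, blue squares promoters of other genes, dark circles regions outside promoters and triangles the 5 regions of the members with an octamer. Regions gather at the TSS of Pou3f2, Pou3f3, Pou4f1 and Pou4f2, and no region is near the TSS of Pou1f1.

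Pou6f1, the class VI member, encodes a factor of the brain and other tissues. The gene (minus strand, chr15:100575318-100599984) had 15 regions, but none was centred in the gene body, and with a window of 50 kb it had 6. Its promoter region, 435 bp at chr15:100600056-100600490, was centred 289 bp upstream of the first coding TSS, ended before it, and was the only region within 10 kb of a TSS of the gene. The closest TSS to that region, at 69 bp, was that of Gm49492. It was also the most isolated region of the locus, with 14360 bp to the next. The other 14 regions were closest to other protein-coding genes, 4 of them to Cela1, which encodes a pancreatic-type elastase, and 6 regions lay in promoters of other genes. The widest region of all 9 loci, 1344 bp at chr15:100614851-100616194, lay in the promoter of Dazap2.

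Pou1f1 encodes PIT1, the factor of growth hormone, prolactin and thyrotropin cells of the pituitary. The gene (plus strand, chr16:65520511-65535005) had 4 regions, and 80.7% of protein-coding genes had more. Its nearest region was centred 10262 bp downstream of the nearest TSS of the gene, in an intron (chr16:65533232-65533847, 616 bp), and had 28482 bp to the next region. The widest region, 830 bp at chr16:65562330-65563159, lay in the promoter of Chmp2b, which encodes a subunit of the ESCRT-III complex. The other 2 regions, of 147 and 185 bp, were intergenic and had Gm23659 as the closest gene. Neither motif was found in the 4 regions.

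By annotation, 40 of the 117 regions (34.2%, 95% Wilson interval 26.2 to 43.2%) were centred in a promoter of any gene, 13 in exons, 33 in introns and 31 between genes. Promoters made up 21% of all 81132 regions and 23.4% of the 71380 regions that lay in the locus of any protein-coding gene. Of the 40 promoter regions, 14 belonged to the members and 26 to neighbours, 20 of the latter at the members of classes II and VI. The median width of the 117 regions was 312 bp, beside 355 bp for all regions, and 32 of them (27.4%, 20.1 to 36.1%) were narrower than 200 bp, beside 19.8%. The 14 own-promoter regions had a median width of 425 bp, while the median over all promoter regions of the list was 600 bp. Of these 14 regions, 2 exceeded 1000 bp, the wider promoter region of Pou2f1 and the promoter region of Pou4f2.

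Base composition differed among the loci. The median GC content of the 117 regions was 57.2% and the median CpG ratio 0.503, compared with 51.9% and 0.300 for all regions. A GC content over 55% together with a CpG ratio over 0.65, called CpG-rich here, was found in 36 regions (30.8%, 23.1 to 39.6%), beside 15.7% of all regions. Outside promoters, 12 of 32 regions of classes III and IV (37.5%, 22.9 to 54.7%) and 2 of 45 at the other 5 members (4.44%, 1.23 to 14.8%) were CpG-rich, and in promoters 9 of 11 and 13 of 29. Of the 12, 11 lay at Pou3f2, Pou3f3 and Pou4f1, among 21 outside promoters, and 1 of the 11 is the region of 894 bp that is 130 bp from a TSS of Rnf219. These 3 genes are singled out by these values, so no interval is given for them. The interval for classes III and IV outside promoters rests mostly on these 3 genes, and the intervals cover counting error only. Regions of a locus are not independent of each other, and the CpG-rich limits were chosen after the values were seen. Over the whole list the shares were 51.9% in promoters and 6.13% outside. Pou3f3 had 5 CpG-rich regions outside promoters, Pou4f1 had 4 and Pou3f2 had 2, and they lay in the coding sequence, the 5' UTR, introns and the flanks of the genes. Pou4f2 had 1 among its 11 regions outside promoters, in the coding sequence, compared with 4 of 7 at Pou4f1 and 2 of 10 at Pou4f3, a gene of the same class outside the 9 members. A neighbour at most 500 bp away was found for 19 of the 43 regions of classes III and IV, compared with 14 of 74 at the other members and 15.1% of the list. Regions repeat-masked over more than 50% of their length numbered 3 of 117 (2.56%, 0.876 to 7.27%), 1 each at Pou3f2, Pou4f1 and Pou6f1, beside 13.7% of all regions.

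**Figure D4:**
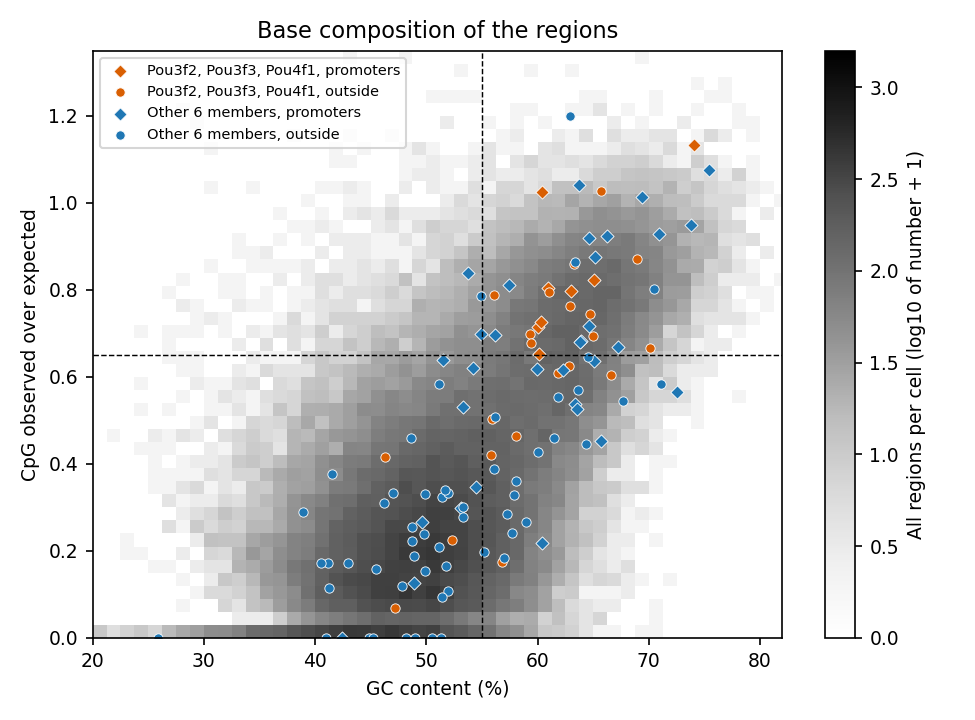
CpG ratio (y axis, observed over expected) against GC content in percent (x axis) for the regions of the members (points) and for all regions of the list (grey, log10 of number plus 1 in each cell), with diamonds for promoters and circles for other regions. Dashed lines mark 55% GC and a ratio of 0.65, and 19 of the 29 regions of Pou3f2, Pou3f3 and Pou4f1 (orange) lie in the upper right field, with 17 of the 88 regions of the other members (blue).

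The octamer was present in 5 of 117 regions (4.27%, 1.84 to 9.62%), beside 2.66% of all regions, and this interval includes the value of the whole list. These regions belonged to 3 members, Pou2f1, Pou2f3 and Pou4f2, and 22% of protein-coding genes had a region with an octamer in the locus. SOX motifs were found in 16 of 117 regions (13.7%, 8.60 to 21.1%), beside 16% of all regions, and at 7 of the 9 members, beside 73.1% of protein-coding genes. Pou2f1 had 4 regions with a SOX motif, and Pou4f1 and Pou1f1 had none. Regions with the octamer and the SOX motif together numbered 2, the upstream region of Pou2f1 and the downstream region of Pou4f2 shown above, with 190 and 135 bases between the motifs. This is 1.71% (0.470 to 6.02%), beside 0.624% of all regions, a value just inside the interval. The SOX-octamer composite CNTTGTNATGC, in which the half-sites are adjacent, and the palindromic elements MORE and PORE, of which PORE contains the octamer, were each found in 0 of 117 regions, which allows a share of up to 2.56%. In the whole list, 0.667% of regions had the composite, 0.0185% MORE and 0.00616% PORE, all below that limit, so the absence of these elements does not set the loci apart.

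Pou5f1 and Pou3f1 had more regions than most members. Pou5f1, which is expressed in these cells, had 24 regions, or 118 per Mb. Pou3f1, the class III gene of OCT6, had 20, or 100 per Mb. The highest value among the members was 85 per Mb, at Pou2f2. Most regions of both loci were closest to other genes. At Pou5f1, 19 were closest to another protein-coding gene and 5 to Pou5f1. At Pou3f1, 11 were closest to another protein-coding gene, 6 to a non-coding gene and 3 to Pou3f1. Within 10 kb of a TSS, however, Pou5f1 and Pou3f1 each had 4 regions, fewer than the 6 or 7 of Pou3f2, Pou3f3, Pou4f1 and Pou4f2. At Pou3f1 the TSS was inside a region of 773 bp, whose centre was 364 bp downstream and so outside the promoter as defined. CpG-rich regions outside promoters numbered 2 of 19 at Pou5f1 and 2 of 14 at Pou3f1.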

How the data were processed

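ATAC-seq was performed on 12 libraries, 3 replicates of each of the 4 sorted groups. The authors mapped reads to mm10 with STAR (2.5.3a), removed duplicates with Picard, called peaks per library with MACS2 (2.1.1.20160309) and merged them with BEDOPS, leaving out peaks found in a ChIP-seq input. An adjustment of read ends for Tn5 is not given in the sources used here. The deposited list has 3 columns, chromosome, start and end, and no level. It gives neither the depth of the libraries nor a replicate error, and allowed no test between groups. Merging the peaks of 12 libraries can join neighbouring peaks and widen a region.

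Positions were compared with GENCODE M21 in Python (3.11.15) with numpy (2.4.6), pandas (2.3.3) and scipy (1.17.1), with pysam (0.24.0) for sequences and matplotlib (3.10.9) for plots. Regions were classed by what lay at their centre, promoters taking precedence over exons and exons over introns, and the gene owning the TSS nearest to the centre was the closest gene. Distances to a gene were taken to its nearest TSS. The same rule was applied to 21938 protein-coding genes. Interval and class steps were tested on simulated data. Wilson intervals have a level of 95%, and a share of 0 was given the limit of 3 counts.

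Members and lists were chosen with earlier results of these data known. Named were the members, the other POU genes, known partners and targets, ES cell markers and, per locus, the neighbour closest to most regions and the gene at the widest promoter region. Some of the listed genes are not reported here. Named regions were those in own promoters, those with an octamer, the widest and the most isolated. Other regions and neighbours named, the 10 kb distance, the CpG-rich limits and the grouping of Pou3f2, Pou3f3 and Pou4f1 were chosen after the values were seen.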

Additional observations from a re-analysis of the deposited data

How the results depend on the processing

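Of 59 alternatives to 8 results, 48 left the value within its counting interval or, for counts, within 1.5 times, and 11 did not. The number of regions in the 9 loci was 202 with a window of 200 kb and 28 in the gene bodies alone, where the median per locus was 3 and the share with an octamer 10.7%. The median width was 404 bp after regions at most 500 bp apart were joined and 408 bp for regions of 200 bp or wider. With promoters of 2000 bp to both sides, 47.9% of the regions lay in promoters. The octamer share was 14.5% with 1 mismatch allowed outside ATGC, beside 15.1% of all regions, and 1.71% in the central 200 bp, where the SOX motif share was 6.84%. For the central 200 bp and for gene bodies no share over all regions is given, so these values do not compare the loci with the list. Over the whole list, regions closest to a member numbered 75 instead of 33 when TSSs of protein-coding genes alone were used, 64 in the loci and 11 outside them. The cause of this difference and that of the higher octamer share in gene bodies were not tested. Members with a region in a promoter of their own numbered 8 under each of the 3 alternatives tried.

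No paired analysis was possible because the list holds no value per library. It does not give the depth of the libraries, and regions called in 1 library and in all 12 cannot be told apart. Accessible sites below the calling threshold are not in the list, which bears on loci with few regions such as Pou1f1.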

Other observations

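Among POU genes outside the 9 members, Pou4f3, a hair cell factor, had 11 regions, 5 of them within 10 kb of a TSS, and Pou3f4 had 5 and Pou5f2 had 4. A region was centred in a promoter of the gene at Pou4f3 and Pou5f2. At Pou3f4, an X-linked gene of the inner ear and brain, 4 of the 5 regions lay within the gene, 2 in coding sequence and 2 in the 3' UTR, and a TSS was inside a region whose centre was 203 bp downstream of it.

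Among 11 genes known as partners or targets of POU factors, 5 had a region centred in a promoter of their own. These were Snapc4, Atoh7, Isl1, Trpm5 and Nes, and the share among all protein-coding genes was 57.7%. The number of regions in the locus was 24 at Nes, 22 at Atoh7, 19 at Trpm5, 15 at Snapc4 and 8 at Isl1, and at Isl1 all 8 lay within 10 kb of a TSS. Gh, Prl and Tshb, which encode pituitary hormones or their subunits, had 17, 2 and 5 regions in the locus and none in a promoter of their own, as was the case for Pou1f1. Pou2af1, which encodes a B cell coactivator of OCT1 and OCT2, had 4 regions and also none in its promoter. Of 5 ES cell markers, Pou5f1, Sox2, Esrrb and Klf4 had such a region and Nanog did not. Their median was 20 regions per locus, beside 11 for all protein-coding genes. Nanog had 32 regions in the locus, 3 of them within 10 kb of a TSS. Promoter regions were counted by their centres, so this count does not show that the Nanog promoter was inaccessible.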
